A study of Mus musculus with 6 samples.

Results

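The Ly6 surface antigens described here are 4 genes, Ly6a, Ly6c1, Ly6c2 and Ly6e, taken by their symbols from the 24421 symbols of the deposited tables. All 4 symbols were found, and all 4 passed the filter on low values. They were measured in endothelial cells sorted from C57BL/6 mice, in 3 libraries from glioma and 3 libraries from normal brain. The glioma was taken 3 weeks after orthotopic injection of GL26l glioma cells, which the series describes as a model of high-grade glioma in congenic hosts. The normal libraries came from non-tumor brain. Which antigens were used to sort the cells, and how many animals went into each library, is not known here. The libraries were made with a Lexogen Quant-Seq kit, which reads the 3′ ends of polyadenylated transcripts, so the values need no division by gene length and levels of different genes can be set side by side. The study asked how tumor vessels differ from brain vessels at the molecular level.

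Ly6 proteins are small, cysteine-rich proteins that are held at the outer face of the cell membrane by a glycosylphosphatidylinositol (GPI) anchor. Ly6a, also called Sca-1, is best known as a marker of mouse blood stem cells, and it is also a marker of mouse brain endothelium, where it serves as the receptor of engineered viral vectors that cross the blood-brain barrier of C57BL/6 mice. Ly6c1 and Ly6c2 together carry the Ly-6C antigen, which marks inflammatory monocytes and also mouse endothelium. Ly6e is an interferon-induced family member that limits the entry of coronaviruses and enhances infection by some other viruses. Because monocytes, T cells and blood progenitors also make Ly6 transcripts, the levels are given below beside marker genes of those cells.

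The members lie within 156920 bases of mouse chromosome 15 in the GRCm38 build (mm10), from base 74955051 to base 75111970, according to the GENCODE M21 annotation. Ly6e (ENSMUSG00000022587.14) lies on the forward strand at chr15:74955051-74959905. Ly6a (ENSMUSG00000075602.10) follows on the reverse strand at chr15:74994877-74998031. Ly6c1 (ENSMUSG00000079018.10) lies on the reverse strand at chr15:75044018-75048830, and Ly6c2 (ENSMUSG00000022584.14) on the reverse strand at chr15:75108158-75111970. No annotated gene overlaps any of them.

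Ly6c1 and Ly6c2 are near-identical copies, which bears on how their reads can be told apart. Their coding sequences, 393 bases each in the first listed transcript of each gene, were identical at 384 bases (97.7%), and the first 300 bases of each are printed here with the 7 bases that differ in capitals, from the start codon on, read 5′ to 3′.
Ly6c1: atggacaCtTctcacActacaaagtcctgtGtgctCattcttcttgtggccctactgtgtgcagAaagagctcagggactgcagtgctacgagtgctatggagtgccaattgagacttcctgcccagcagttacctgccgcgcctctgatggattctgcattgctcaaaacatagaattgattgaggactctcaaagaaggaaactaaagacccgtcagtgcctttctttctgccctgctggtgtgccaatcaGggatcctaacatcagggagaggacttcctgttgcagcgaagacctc
Ly6c2: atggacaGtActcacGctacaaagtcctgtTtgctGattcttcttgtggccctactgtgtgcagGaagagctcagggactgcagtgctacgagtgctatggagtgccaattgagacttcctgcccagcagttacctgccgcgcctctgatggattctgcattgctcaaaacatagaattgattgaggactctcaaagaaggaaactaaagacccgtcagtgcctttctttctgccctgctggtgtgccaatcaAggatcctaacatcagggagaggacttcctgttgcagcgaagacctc
The last 300 bases of these transcripts, where 3′ reads fall, were 93.5% identical. Of the 251 windows of 50 bases in that end of Ly6c1, 75 occurred unchanged in a Ly6c2 transcript, and 50 of 226 windows of 75 bases did. Neither the read length nor the treatment of reads with more than 1 match is known here, so the division of reads between Ly6c1 and Ly6c2 is uncertain. Ly6a shared 0 windows of 50 bases with Ly6c1, Ly6c2 or Ly6e, and its coding sequence was 81.8% identical to that of Ly6c1 and 54.2% to that of Ly6e.

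The promoters of the near-identical copies were less alike than their coding sequences. They are shown because the copies lie side by side and their levels are compared below. Each window runs from 250 bases before to 50 bases after the transcript start, from RefSeq on GRCm38.p6, which listed windows for 2 of the 4 members. The window of Ly6c1 is chr15:75048788-75049087 and that of Ly6c2 is chr15:75111922-75112221, both on the reverse strand, printed 5′ to 3′ with matches on either strand in capitals for the TATA box letters TATAAA, the box named CCAAT and the ETS core GGAAGT.
Ly6c1: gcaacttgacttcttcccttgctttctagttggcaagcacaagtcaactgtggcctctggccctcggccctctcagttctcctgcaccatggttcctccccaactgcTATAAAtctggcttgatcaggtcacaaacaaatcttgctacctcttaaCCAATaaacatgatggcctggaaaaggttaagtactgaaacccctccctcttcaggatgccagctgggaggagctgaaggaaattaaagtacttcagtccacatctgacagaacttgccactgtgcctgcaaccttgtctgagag
Ly6c2: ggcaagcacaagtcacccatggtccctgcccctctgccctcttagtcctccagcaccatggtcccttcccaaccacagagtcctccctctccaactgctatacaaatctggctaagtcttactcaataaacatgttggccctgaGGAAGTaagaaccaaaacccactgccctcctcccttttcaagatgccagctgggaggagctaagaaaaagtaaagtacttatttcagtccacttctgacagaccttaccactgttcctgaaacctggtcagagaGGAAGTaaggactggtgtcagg
Aligned end to end, the windows had 208 identical bases over 334 columns, of which 68 were gaps. The windows are offset, since the first bases of Ly6c2 (ggcaagcacaagtca) stand further inside the Ly6c1 window. Gaps from this offset count among the 68. The Ly6c1 window held 1 TATAAA, found in 14.2% of the 27025 promoter windows of the same length, and 1 CCAAT, found in 37.9%. The Ly6c2 window held neither, and held 2 matches to GGAAGT, the core letters bound by ETS factors, found in 24.1% of windows, where Ly6c1 held 0. The interferon motifs TTCNNNGAA (8.5% of windows) and GAAANNGAA (8.6%), the AP-1 motif TGANTCA (7.9%) and the GATA motif AGATAA (11.4%) had 0 matches in either window. These motifs were chosen after the windows had been read, they do not overlap each other here, and a match describes letters only.

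The log2 values as deposited appear quantile-normalized across the 6 libraries, so that a value reflects a gene's place in the order of its library. Genes above 0 numbered 10013 to 13108 in the glioma libraries and 7446 to 13072 in the normal libraries. Normal replicates 2 and 3 resembled each other most (Pearson's r = 0.97 across 5880 genes, which are not independent replicates), and every other pair of libraries gave 0.54 to 0.82. Sequencing depth is unknown. Nothing states that the 3 libraries of a group came from separate animals, so p-values measure only the spread between these samples, which may be technical. Date-like numbers in the column headers are shared by glioma replicates 2 and 3 and by normal replicates 2 and 3, and never across groups. What they stand for is not stated, and anything they mark cannot be told apart from the groups.

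Ly6a, Ly6e and Ly6c1 were among the most abundant RNAs of these endothelial libraries, and the order of the members was the same in 6 of 6 libraries. Ly6a was highest, followed by Ly6e, Ly6c1 and Ly6c2. In the order of all 24421 symbols, Ly6a held places 14, 3 and 2 in glioma replicates 1, 2 and 3, against places 5, 11 and 9 in normal replicates 1, 2 and 3. Ly6e held places 78, 6 and 7 in the glioma libraries, against 45, 14 and 15 in the normal libraries. Ly6c1 held places 197, 21 and 13, against 106, 53 and 52, and Ly6c2 stood far lower at places 3701, 1299 and 557, against 3530, 4430 and 4155. After back-transformation, the 4 members together made up 0.57%, 1.96% and 2.26% of the summed values in glioma replicates 1, 2 and 3. The same share was 1.01%, 0.969% and 1.04% in normal replicates 1, 2 and 3. The normal libraries thus lay close together, while the glioma libraries spread to both sides of them.

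**Figure D1:**
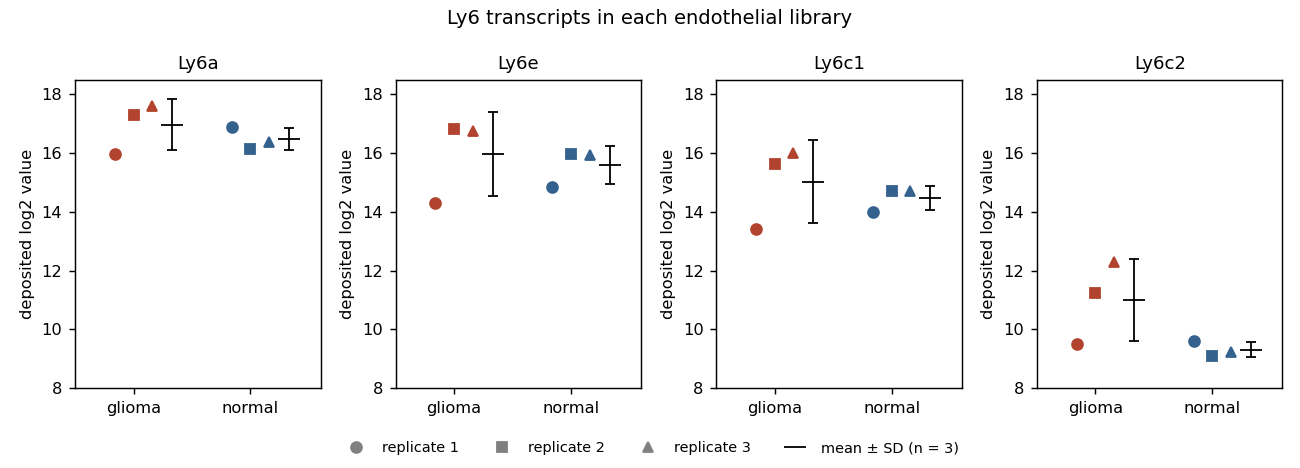
Deposited log2 value (vertical axis) of Ly6a, Ly6e, Ly6c1 and Ly6c2 in 3 glioma libraries (left) and 3 normal libraries (right), 1 point a library, with the mean and SD beside them. Glioma replicate 1 is the lowest glioma library in each panel, and glioma replicates 2 and 3 lie above all 3 normal libraries in each panel, as they do for 15% of all genes tested. Replicates 2 and 3 were singled out after the values were seen, and the groups overlap in each panel.

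No member passed the test of glioma against normal endothelium over all genes. The point estimates were positive for all 4, and the largest was that of Ly6c2. Each member's lowest glioma library was replicate 1, and each member's glioma replicates 2 and 3 lay above all 3 normal libraries, as they did for 15% of all genes tested. Replicates 2 and 3 were singled out after the values were seen. With all 3 glioma libraries the groups overlapped for every member, while 6.91% of all genes tested lay wholly above. In limma with Benjamini-Hochberg adjustment over 11862 genes tested, 0 genes passed an adjusted p of 0.05 (0% of genes tested). The smallest adjusted p was 0.875, and 509 genes (4.29%) had an unadjusted p under 0.05.

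Ly6a, the stem cell antigen, had log2 values of 15.99, 17.31 and 17.62 in glioma replicates 1, 2 and 3, against 16.90, 16.15 and 16.39 in normal replicates 1, 2 and 3. The groups overlapped, since glioma replicate 1 was the lowest of all libraries. The means were 16.97 ± 0.87 in glioma and 16.48 ± 0.39 in normal libraries (SD, n = 3 each). The difference, glioma minus normal, was 0.49 on the log2 scale (SE 0.78, 95% interval -1.28 to 2.26, limma adjusted p = 0.904).

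Ly6e, the interferon-induced member, had log2 values of 14.30, 16.83 and 16.77 in the glioma libraries, against 14.85, 15.99 and 15.95 in the normal libraries. In each group replicate 1 was the lowest library, and the groups overlapped. The means were 15.97 ± 1.44 in glioma and 15.60 ± 0.64 in normal libraries (SD, n = 3 each). The difference was 0.37 (SE 0.83, 95% interval -1.52 to 2.27, limma adjusted p = 0.937). It was -0.06 without glioma replicate 2 and -0.03 without glioma replicate 3, so its direction was not stable.

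Ly6c1, the abundant copy of the Ly-6C pair, had log2 values of 13.40, 15.65 and 16.02 in the glioma libraries, against 13.98, 14.71 and 14.72 in the normal libraries. As for Ly6e, the groups overlapped, with replicate 1 lowest in each group. The means were 15.02 ± 1.42 in glioma and 14.47 ± 0.42 in normal libraries (SD, n = 3 each). The difference was 0.55 (SE 0.74, 95% interval -1.14 to 2.24, limma adjusted p = 0.891).

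Ly6c2, the copy known from monocytes, had log2 values of 9.50, 11.23 and 12.29 in the glioma libraries, against 9.60, 9.09 and 9.25 in the normal libraries. The groups overlapped through a single pair, glioma replicate 1 and normal replicate 1. The means were 11.00 ± 1.41 in glioma and 9.31 ± 0.26 in normal libraries (SD, n = 3 each). The difference was 1.69 (SE 0.75, 95% interval -0.01 to 3.39), with an unadjusted p of 0.0507 and a limma adjusted p of 0.875, so it did not pass. Normal replicate 1 had its lowest value above 0 at 7.43, so 9.60 there stood 2.17 above the lowest level this library could show.

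The size of each difference depended on single libraries. Without glioma replicate 1 the differences were 0.99 for Ly6a, 1.20 for Ly6e, 1.36 for Ly6c1 and 2.45 for Ly6c2, with limma adjusted p from 0.775 to 0.781. Without glioma replicate 3 they were 0.17, -0.03, 0.05 and 1.05. Without normal replicate 1, the library least like the others of its group, they were 0.70 for Ly6a, 0.0004 for Ly6e, 0.31 for Ly6c1 and 1.83 for Ly6c2. In the libraries that share a header number within a group (glioma replicates 2 and 3 against normal replicates 2 and 3, a subset chosen after the values were seen), the differences were 1.20, 0.83, 1.12 and 2.59. In that subset the glioma libraries lay above the normal libraries for 4 of 4 members, as they did for 24.6% of all genes tested, and no member passed (limma adjusted p from 0.126 to 0.254).

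**Figure D2:**
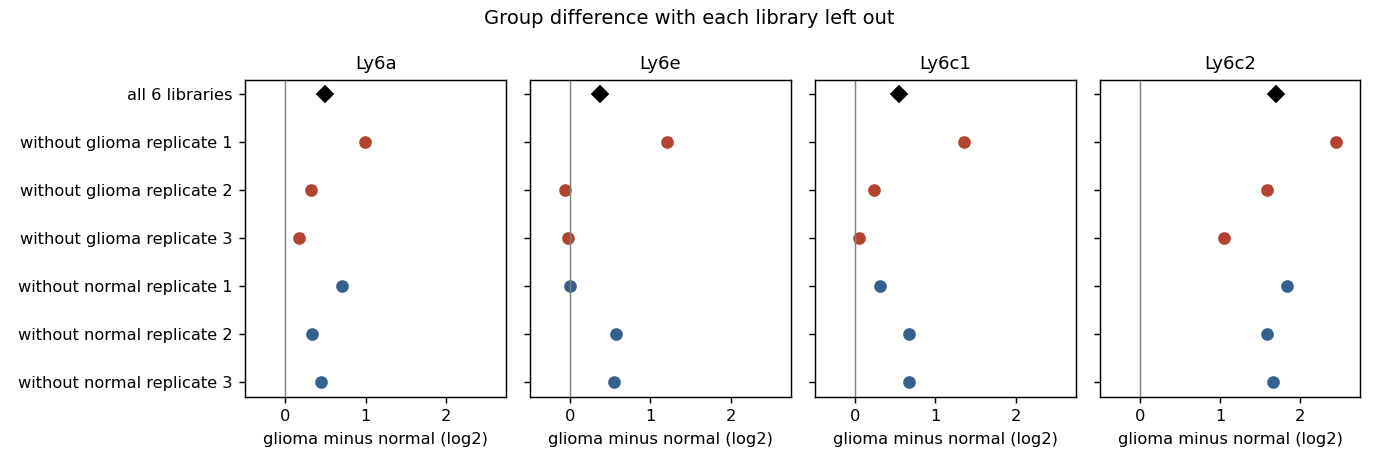
Difference of group means, glioma minus normal on the log2 scale (horizontal axis), for each member with all 6 libraries (black diamond) and with 1 library left out (red, a glioma library; blue, a normal library). Ly6c2 stays between 1.05 and 2.45, and Ly6e lies between -0.06 and 1.20.

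Set against endothelial markers of the same library, no member passed the test. The mean of these markers differed by -0.33 (glioma minus normal). Subtracting it raises every gene's difference by the same amount, so the larger point estimates of all 4 members follow by construction. The mean log2 value of 15 endothelial markers was 13.18, 13.92 and 13.65 in glioma replicates 1, 2 and 3, against 13.64, 14.01 and 14.09 in normal replicates 1, 2 and 3. Relative to that mean, Ly6a stood 2.80, 3.40 and 3.97 higher in the glioma libraries, against 3.26, 2.13 and 2.30 in the normal libraries. Ly6c2 stood at -3.68, -2.69 and -1.36 in the glioma libraries, against -4.04, -4.92 and -4.84 in the normal libraries, and here the groups did not overlap. Ly6c2 was the single member of 4 with this separation, which 9.86% of all genes tested showed in the same direction on this scale. The differences on this scale were 0.83 for Ly6a, 0.70 for Ly6e, 0.88 for Ly6c1 and 2.02 for Ly6c2, while the median over all genes tested was 0.38 on this scale and 0.05 as deposited. Limma adjusted p ranged from 0.861 to 0.869. In sorted bulk samples, fewer cells of a type and less RNA per cell cannot be told apart.

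**Figure D3:**
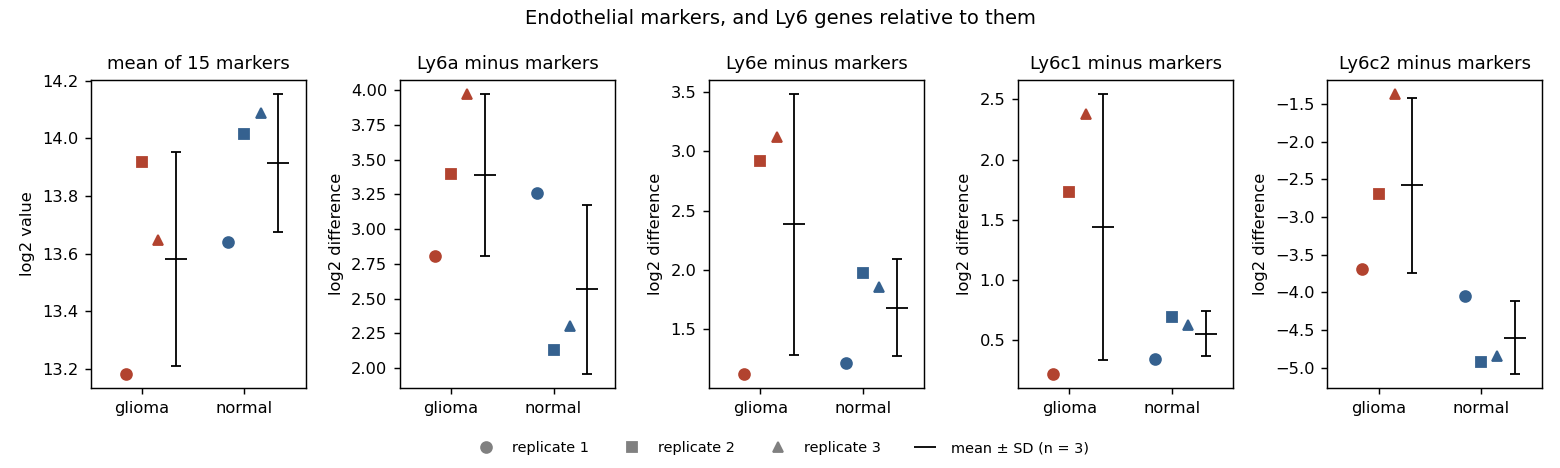
Mean log2 value of 15 endothelial markers (first panel) and each member's log2 value minus that mean in the same library (other panels), with glioma libraries left, normal libraries right, and mean and SD. The vertical axes differ between panels. The Ly6c2 panel shows no overlap, with glioma libraries from -3.68 to -1.36 and normal libraries from -4.92 to -4.04.

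The spacing between members was compared within each library, where a shared factor on all genes drops out. Ly6e exceeded Ly6c1 by 0.90, 1.19 and 0.75 in the glioma libraries, against 0.87, 1.28 and 1.23 in the normal libraries. This spacing stayed within 0.75 to 1.28 although Ly6e itself ranged over 2.53 log2 units. Ly6a exceeded Ly6c2 by 6.49, 6.08 and 5.33 in the glioma libraries, against 7.31, 7.05 and 7.14 in the normal libraries. These values did not overlap, and the gap was narrower in glioma by a difference of -1.20 (two-sided exact permutation p = 0.1, the smallest that 3 against 3 libraries can give, adjusted p = 0.4 over 6 pairs). Ly6c1 exceeded Ly6c2 by 3.90, 4.42 and 3.74 in the glioma libraries, against 4.39, 5.62 and 5.47 in the normal libraries, a difference of -1.14 (exact permutation p = 0.2, adjusted p = 0.4). Ly6e exceeded Ly6c2 by 4.96 ± 0.58 in glioma and 6.28 ± 0.89 in normal libraries (SD, n = 3 each, exact permutation p = 0.2, adjusted p = 0.4). The gap of Ly6a over Ly6c1 was 1.95 ± 0.55 in glioma and 2.01 ± 0.80 in normal libraries (SD, n = 3 each, exact permutation p = 0.8), and that of Ly6a over Ly6e was 1.01 ± 0.62 and 0.88 ± 1.02 (p = 0.8 by the exact permutation test). Both were largest in replicate 1 of either group. No pair could pass a threshold of 0.05 with 3 libraries a group.

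**Figure D4:**
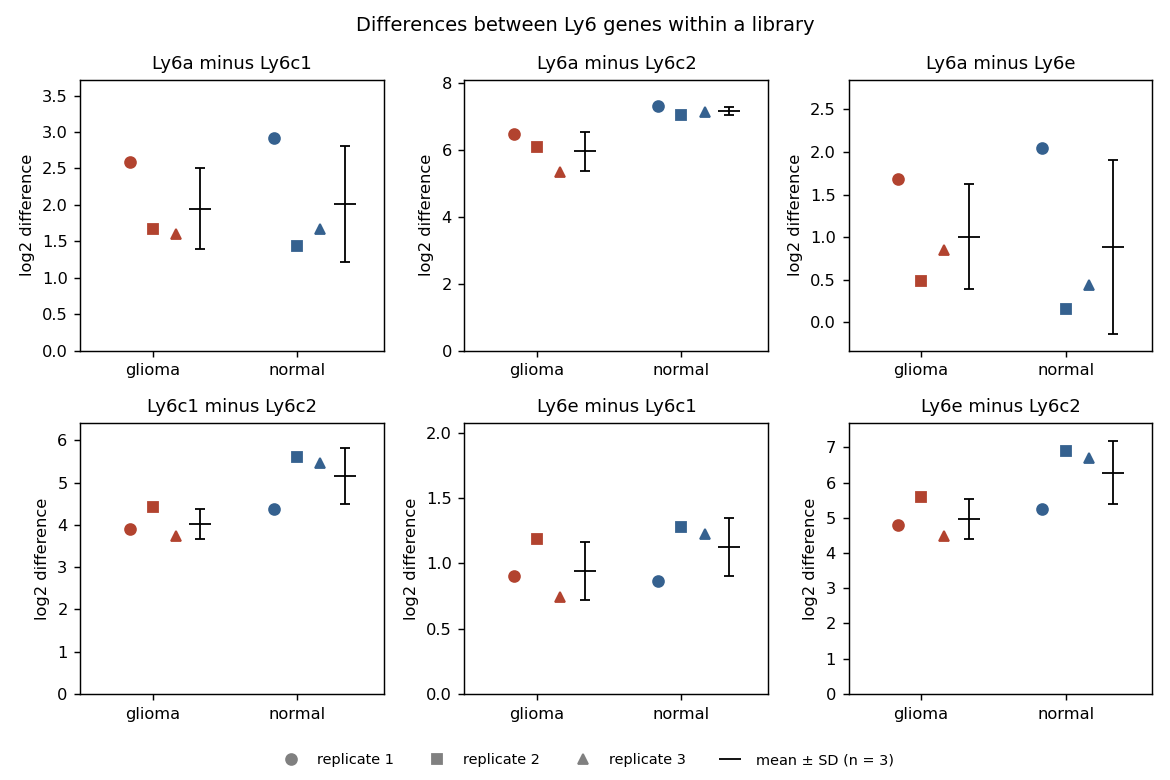
Log2 value of 1 member minus that of another in the same library (vertical axis), for the 6 pairs, with glioma libraries left, normal libraries right, and mean and SD. The gap of Ly6a over Ly6c2 lies between 5.33 and 6.49 in glioma and between 7.05 and 7.31 in normal libraries.

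Ly6c1 and Ly6e followed each other more closely than other members did. Likeness was measured as the root mean square difference between log2 values over the 6 libraries, each gene centred on its own mean, among 5880 genes above 0 in all libraries. For Ly6c1 the nearest genes were Fxyd5, which encodes a small regulator of the sodium pump (0.0788), the ciliary transcription factor gene Rfx3 (0.162) and Pald1 (0.188). Ly6e held place 4 of 5879 (0.204), and Ly6c1 held place 5 in the order for Ly6e. The nearest genes to Ly6e were Rfx3 (0.117), the annexin gene Anxa5 (0.143) and Fxyd5 (0.192). Fxyd5 had log2 values of 11.00, 13.37 and 13.74 in the glioma libraries, against 11.49, 12.42 and 12.34 in the normal libraries, the same order of libraries as Ly6c1 but for the pair of normal replicates 2 and 3.

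Ly6a and Ly6c2 had other nearest genes. For Ly6a these were Ccdc50 (0.108), Smim11 (0.162) and the zinc transporter gene Slc30a7 (0.183), and Ly6c1 held place 549 (0.559). For Ly6c2 they were the gene listed as SEPT2, which encodes a septin (0.167), Cipc (0.265) and the cyclic AMP phosphodiesterase gene Pde4b (0.281). Its near-identical copy Ly6c1 held place 139 (0.719). Pde4b had log2 values of 11.01, 13.09 and 13.71 in the glioma libraries, against 10.83, 10.04 and 10.54 in the normal libraries.

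Most of the wider Ly6/uPAR family was listed at 0. Of 35 further family genes matched in the tables, 21 were listed at 0 in all 6 libraries and 8 were tested. None of the 8 passed in either direction (adjusted p of 0.05 in limma), 1 had an unadjusted p under 0.05, and their median difference was -1.11, against 0.05 over all genes tested. That median rested on values at or near 0: it was -0.07 when all values under 7.43, the highest of the libraries' lowest values above 0, were raised to it. It was 0.48 over the 2 family genes above 0 in all 6 libraries, which differed in opposite directions (Ly6f 1.67, Cd59a -0.71). All 3 glioma values exceeded all 3 normal values for 1 of the 8 and lay under them for 1, against 6.91% and 6.37% of genes tested.

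The highest of these relatives was Cd59a, an inhibitor of the complement membrane attack complex, at 11.39 ± 0.67 in glioma and 12.09 ± 0.90 in normal libraries (SD, n = 3 each). Ly6f, another gene of the chromosome 15 cluster, had log2 values of 10.21, 10.40 and 7.77 in the glioma libraries, against 10.88, 6.36 and 6.13 in the normal libraries. Plaur, the urokinase receptor, had 6.54, 8.32 and 9.70 in the glioma libraries, against 0, 5.27 and 5.74 in the normal libraries, so the groups did not overlap (limma unadjusted p = 0.0916, adjusted p = 0.875). Lynx1, a modulator of nicotinic receptors in neurons, had 0, 6.20 and 0 in the glioma libraries, against 7.43, 8.82 and 8.05 in the normal libraries (limma unadjusted p = 0.0459, adjusted p = 0.875). The lowest value above 0 was 0.42 in glioma replicate 1 and 5.22 in glioma replicate 3, so a 0 does not mean the same level in each library and the size of the Lynx1 difference is not interpretable.

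Further family genes are named after their values were seen. Gpihbp1, which carries lipoprotein lipase across capillary endothelium, had log2 values of 1.81, 7.79 and 5.71 in the glioma libraries, against 9.90, 0 and 3.46 in the normal libraries, with no separation of the groups. Ly6i, which lies between Ly6e and Ly6a, was listed at 0, 4.38 and 5.48 in the glioma libraries and at 0 in all 3 normal libraries. Glioma replicates 2 and 3 were also the libraries in which the 4 members were highest. These Ly6i values lay near the lowest values above 0 there, 3.82 and 5.22, and normal replicate 1 showed nothing under 7.43. Of the 271 windows of 30 bases in the end of a member's transcript, 18 of Ly6c1, 20 of Ly6c2 and 6 of Ly6a occurred unchanged in Ly6i. Whether reads of the members entered the Ly6i values was not tested.

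**Figure D5:**
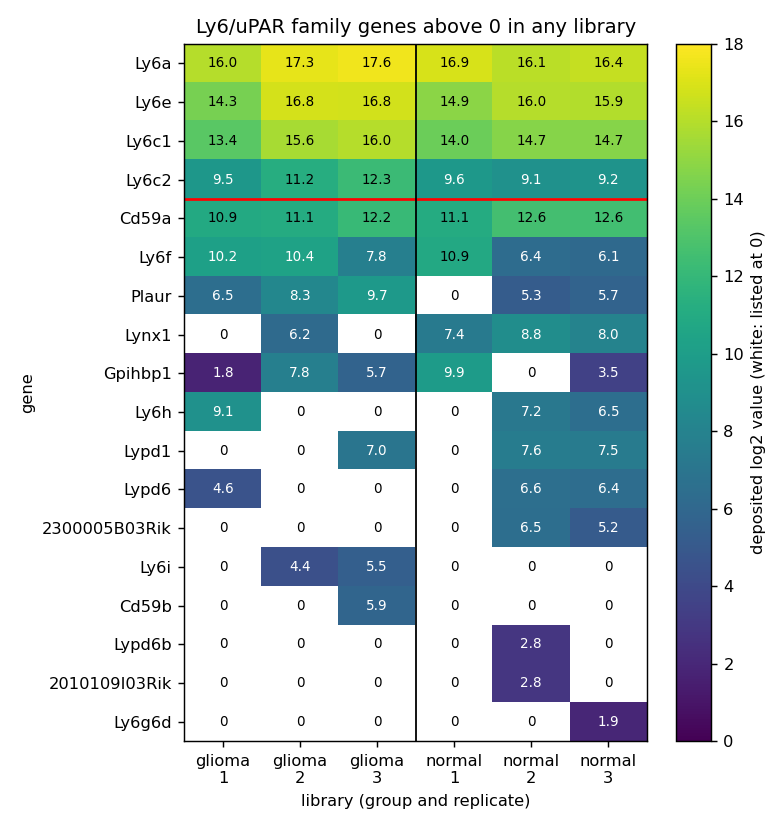
Deposited log2 value (colour and number) of the 4 members, above the red line, and of the further Ly6/uPAR family genes above 0 in at least 1 library, below it, in 3 glioma libraries (left) and 3 normal libraries (right). White cells are listed at 0. Ly6a, Ly6e and Ly6c1 exceed 13 in every library, which no other gene shown does.

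Genes that build and attach the GPI anchor, which all 4 proteins need, did not pass the test. Of 31 genes, 27 were tested, 0 passed in either direction and 0 had an unadjusted p under 0.05 in limma. The glioma mean was higher for 18 of the 27, against 51.4% of all genes tested. Their median difference was 0.58, and it was 0.0027 with values under 7.43 raised to it and 0.06 without normal replicate 1, in which 17 of the 31 genes were above 0, against 22 to 30 in the other libraries. Pigt, a subunit of the transamidase that attaches the anchor, was at 10.56 ± 0.70 in glioma and 9.98 ± 0.25 in normal libraries (SD, n = 3 each). Gpaa1, another subunit, was at 9.91 ± 0.78 in glioma and 10.08 ± 0.42 in normal libraries, and Pigq, of the enzyme that starts the anchor, at 10.73 ± 1.35 and 11.31 ± 0.33. The smallest p belonged to Pgap2, which remodels the anchor lipid, at 10.51, 10.47 and 9.19 in the glioma libraries, against 9.21, 8.71 and 8.72 in the normal libraries (limma unadjusted p = 0.109, adjusted p = 0.875). Pigs, a further transamidase subunit, followed with 8.96, 8.79 and 7.22, against 0, 6.04 and 7.24 (limma unadjusted p = 0.131, adjusted p = 0.875).

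Interferon genes were examined because interferon induces Ly6e and Ly6a. Of 38 receptors, factors and induced genes, 37 were tested and 0 passed in either direction. Of the 37, 4 had an unadjusted p under 0.05 in limma, a larger share than the 4.29% of all genes tested. The 2 of smallest p differed in opposite directions (Irf8 9.28, Ifnar1 -1.86), and Irf8 was listed at 0 in all 3 normal libraries. All 3 glioma values exceeded all 3 normal values for 3 of the 37 and lay under them for 3, against 6.91% and 6.37% of genes tested. These counts of separated genes were near the background. The median difference was -0.03, and it was 1.12 without glioma replicate 1. The summed back-transformed values of the list made up 0.226%, 0.766% and 0.826% of the glioma libraries, against 0.363%, 0.578% and 0.598% of the normal libraries. Replicate 1 was thus the lowest in each group, as it was for Ly6e and Ly6c1. The part of this list in the Ly6 levels was not tested.

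Named interferon genes did not follow a single pattern. Irf9, of the factor complex downstream of type I interferon, was at 12.97 ± 0.95 in glioma and 13.45 ± 0.62 in normal libraries (SD, n = 3 each), and Irf1 at 13.10 ± 0.57 and 12.72 ± 0.31. Ifi27, an induced gene, had 9.29, 12.12 and 14.25 in the glioma libraries, against 11.67, 12.87 and 12.92 in the normal libraries. Irf8, a factor of monocytes and macrophages, had 6.75, 9.97 and 11.14 in the glioma libraries and was listed at 0 in all 3 normal libraries (limma unadjusted p = 0.00368, adjusted p = 0.875). Normal replicate 1 showed no value above 0 under 7.43, so the size of the Irf8 difference is uncertain. Ifnar1, a chain of the type I interferon receptor, had 11.02, 10.80 and 9.66 in the glioma libraries, against 11.02, 12.99 and 13.07 in the normal libraries (limma unadjusted p = 0.0232, adjusted p = 0.875).

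Endothelial markers were present throughout, T, NK and B cell markers were sparse, and monocyte markers varied widely between libraries. All 15 endothelial markers were above 0 in each library and made up 1.39% to 2.4% of summed values in glioma and 2.61% to 3.3% in normal libraries. Of 13 monocyte markers, 10, 1 and 8 were above 0 in glioma replicates 1, 2 and 3, against 4, 3 and 5 in the normal libraries. Their sums were 0.00359%, 0.000498% and 0.0334% in the glioma libraries, against 0.0104%, 0.000827% and 0.00062% in the normal libraries. The highest of them, Cx3cr1, which microglia also express, had log2 values of 5.13, 0 and 9.08 in the glioma libraries, against 9.65, 6.88 and 6.51 in the normal libraries. Csf1r followed with 5.13, 0 and 8.73 in the glioma libraries, against 7.43, 3.92 and 3.32 in the normal libraries. Ms4a6c had 3.81, 0 and 6.36, against 9.20, 3.415 and 0. Of markers named after their values were seen, Ccr2, the chemokine receptor of inflammatory monocytes, had 0.42 in glioma replicate 1 and was listed at 0 in the other libraries. Cd14, a receptor subunit for bacterial lipopolysaccharide on monocytes and macrophages, had 3.81, 6.42 and 8.33 in the glioma libraries and was listed at 0 in all 3 normal libraries (limma unadjusted p = 0.0151, adjusted p = 0.875). The lowest value above 0 in normal replicate 1 was 7.43, so a level of 3.81 or 6.42 could not have shown there. Plac8 had 8.09, 0 and 8.40 in the glioma libraries, against 0, 0 and 1.81 in the normal libraries. The monocyte and macrophage gene Lyz2 had 0, 0 and 10.18 in the glioma libraries, against 0, 0 and 1.81 in the normal libraries. Chil3, another such gene, had 11.32 in glioma replicate 3 and was listed at 0 in the other libraries. Itgam had 6.75, 0 and 0 in the glioma libraries, against 7.54, 0 and 1.22 in the normal libraries. These genes thus differed in which glioma libraries held them. In glioma replicate 2, Cd14 was the 1 of 13 monocyte markers above 0, and that library showed no value above 0 under 3.82. Glioma replicate 3 had the highest monocyte sum. The part of monocytes in the Ly6c2 values was not tested. Microglia and macrophage markers summed to 0.00509%, 0.00429% and 0.0675% in the glioma libraries, against 0.0173%, 0.00121% and 0.00106% in the normal libraries, with 10, 2 and 10 of 12 above 0, against 3, 5 and 5. Of 11 T and NK cell markers, at most 2 were above 0 in any library, and Cd3e, Cd4 and Cd8a were at 0 in all 6. Lck had 8.63, 8.62 and 0 in the glioma libraries and was listed at 0 in all 3 normal libraries. Cd3d had 0, 3.82 and 0 in the glioma libraries, against 7.67, 4.88 and 3.25 in the normal libraries. Thy1 had 5.60, 0 and 0, against 7.54, 4.04 and 0.74. The T and NK list summed to 0.0026%, 0.00239% and 0% in the glioma libraries, against 0.00232%, 0.000258% and 5.38e-05% in the normal libraries. Of 6 B cell markers, 5 were at 0 in all 6 libraries. Granulocyte markers summed to 0.0582% in glioma replicate 1 and at most 0.00102% elsewhere. Markers of blood stem and progenitor cells summed to 0.0192% to 0.028% in glioma and 0.0115% to 0.0359% in normal libraries. The highest of these was Gata2, which endothelium also expresses, at 11.26 ± 0.23 in glioma and 11.15 ± 0.27 in normal libraries (SD, n = 3 each). Kit followed with 9.81, 10.77 and 10.09 in the glioma libraries, against 11.90, 3.92 and 0.22 in the normal libraries. The groups overlapped for Kit (limma unadjusted p = 0.0922, adjusted p = 0.875). Meis1 had 9.12, 0 and 5.48 in the glioma libraries, against 0, 3.415 and 0 in the normal libraries.

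Further marker lists bear on the purity of the sort. Pericyte and smooth muscle markers summed to 0.0558% to 0.0838% in glioma and 0.0309% to 0.111% in normal libraries. Fibroblast markers summed to 0.0216% in glioma replicate 1 and at most 0.00413% elsewhere. Neural, glial and glioma progenitor markers summed to 0.0174% to 0.0868% in glioma and 0.0511% to 0.067% in normal libraries. Slc1a2 was the highest, at 12.3 ± 1.8 and 12.5 ± 0.7 (SD, n = 3 each). Sox2, named after its values were seen, had 7.92, 5.53 and 8.47 in glioma, against 0, 0 and 1.22 in normal libraries. Its limma unadjusted p was 0.012 and its adjusted p 0.875. Likewise, Mbp had 3.12, 3.82 and 0, against 0, 10.96 and 10.94. Aqp4 was at 0 in all 3 glioma libraries, against 0, 8.63 and 7.88. A 0 in normal replicate 1 could hide any level under 7.43, the lowest value above 0 there. By the same measure, Ly6a made up 0.382%, 0.958% and 1.18% of the glioma libraries, against 0.73%, 0.426% and 0.504% of the normal libraries. Ly6c2 made up 0.00425%, 0.0141% and 0.0294%, against 0.00461%, 0.00321% and 0.00356%. The sum of a marker list does not give how much of a member's RNA those cells supplied. The part of other cells in the members' levels was not tested.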

How the data were processed

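RNA from sorted endothelial cells was taken up in Trizol and made into Lexogen Quant-Seq libraries, per the labels' protocols. The submitters' processing notes name Bowtie2, edgeR and the build mm10, with neither roles nor versions. The authors deposited 1 log2 value per gene symbol and library. They were read as log2(x + 1) of values that the authors quantile-normalized, because the highest value was the same in every library and 100% of back-transformed non-zero values lay within 0.02 of a multiple of 1 divided by 6. Sequencing depth therefore cannot be read from the values, while the number of genes above 0 and the lowest value above 0 still differ between libraries. The design's case of normalized values was used.

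The fit across genes used limma 3.58.1 (R 4.3.3), the group as its only term and a variance prior that follows mean level. Its estimated differences were checked on simulated, normally distributed values. These lacked the zeros and the differing lowest values of the libraries, so p-values were not checked for such data. A gene entered the fit when 3 or more libraries reached 1 after back-transformation. Differences between members were compared with exact permutation tests in SciPy 1.17.1. Transcripts were aligned with Biopython 1.88. Alternatives covered the filter, pseudocount, low end, scaling, variance prior, replicate block and each library left out. The members and gene lists were chosen with earlier results of these data known. Genes named were the members, the 3 highest and the 2 of smallest p of each pathway list, and the 3 nearest genes of each member. The rule also took the 3 highest genes of each marker list, of which some are named and the rest enter only their list's sum. Of the list symbols, 6 of the Ly6/uPAR family, 1 T cell marker and 1 B cell marker were not matched, and Pigy was matched as Pigyl.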

Additional observations from a re-analysis of the deposited data

How the results depend on the processing

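The filter, shared floor, variance prior and replicate block leave a member's difference as it is by construction. With each library left out in turn, the difference ranged from 0.17 to 0.99 for Ly6a, from 0.05 to 1.36 for Ly6c1, from 1.05 to 2.45 for Ly6c2 and from -0.0602 to 1.20 for Ly6e, and no member passed in any of them. Centring on endothelial markers, or on the library median, raised the difference by the same amount for all genes. The 4 differences therefore stayed positive by construction. The number of genes called was 0 with each library left out and 15 without a trend in the variance prior, none of them a member. The within-library gap differences ranged from -0.38 to 0.39 for Ly6a over Ly6c1, -0.24 to 0.70 for Ly6a over Ly6e, -1.46 to -0.88 for Ly6a over Ly6c2, -1.53 to -0.91 for Ly6c1 over Ly6c2, -0.31 to -0.08 for Ly6e over Ly6c1, and -1.83 to -1.02 for Ly6e over Ly6c2. The median of the other Ly6/uPAR genes ranged from -2.52 to -0.51, and was 0.48 over the 2 genes above 0 in all 6 libraries. It was -0.0697 with a shared floor and -2.51 without normal replicate 1 and glioma replicate 1. The GPI anchor median ranged from 0.0554 to 0.94, and was 0.0834 over genes above 0 in all 6 libraries, 0.43 with a pseudocount of 16, 0.0027 with a shared floor, 0.91 relative to endothelial markers and 0.19 without both replicates 1. The interferon median ranged from -0.65 to 1.12. The causes were not tested. Same-numbered libraries deviated together with r of 0.19, 0.15 and 0.06. Glioma replicate 2 gave 0.191 with normal replicate 3, and glioma replicate 3 gave 0.084 with normal replicate 2, so the numbers were not taken as pairs. Replicate 1 of either group gave -0.186 to -0.079 with replicates 2 and 3 of the other group. With the replicate block the members' differences were as in the fit without it (0.49, 0.37, 0.55 and 1.69 for Ly6a, Ly6e, Ly6c1 and Ly6c2) and the count of calls was 0. Depth is unknown, so no limit of detection could be set.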
